A study of Mus musculus with 24 samples.

Results

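Bex1, Lgi1, Mtm1, Smg1, Ghitm and Neat1 are 6 genes whose transcripts were far lower in hearts carrying extra beta1-adrenergic receptor than in hearts without a transgene. They were selected on the size of those falls in mean log2 value, in hearts with the Arg389 form of the receptor (ARG) or with the Gly389 form (GLY), and no fixed threshold was given for the choice. Every probe set annotated to exactly 1 of the 6 symbols was taken, which gave 14 of the 45037 probe sets tested and 6 of the 18193 genes with a single symbol. Bex1 had 1 probe set, Lgi1 2, Mtm1 3, Smg1 4, Ghitm 2 and Neat1 2. Because the changes of ARG and of GLY hearts against non-transgenic hearts chose the genes, those changes are given below as descriptions without a test. For the 6 genes a test is given only for AC5 against NTG hearts, which the choice did not use, apart from sharing the NTG hearts.

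RNA from whole hearts of 90-day-old mice was labelled and hybridised to Affymetrix arrays, with 6 hearts for each of 4 genotypes. ARG mice carried the Arg389 form of the human beta1-adrenergic receptor, with arginine at that residue, and GLY mice the Gly389 form, with glycine there. AC5 mice carried type 5 adenylyl cyclase. In all 3 lines the human transgene was driven in heart muscle cells by the alpha-myosin heavy chain promoter, and NTG mice carried none. The labels give no sex, strain or number of founder lines, so a line's own features and its transgene cannot be told apart. Values were deposited as ratios near 1 in NTG hearts, and they are given here as log2 of the ratio, on which 0 is the non-transgenic level and -1 is 2-fold lower. A ratio holds no signal level, so levels of different genes were not compared, and the presence of heart markers could not be checked. By array weight, a measure of how well an array matches its group over all probe sets, 3 arrays were lowest. They were ARG replicate 1 (0.478) and, in GLY, replicates 1 (0.354) and 3 (0.312). GLY replicate 2 (0.568) came next, without a clear gap. In whole-heart RNA, fewer cells of a type and less RNA per cell cannot be told apart.

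The beta1-adrenergic receptor is the main receptor for noradrenaline and adrenaline on heart muscle cells. It couples through the stimulatory G protein to adenylyl cyclases, of which type 5 is a major cardiac form, and so raises cyclic AMP and contractile force. The Arg389 and Gly389 forms are common human variants that differ in the strength of this coupling, and long-lasting transgenic expression of the receptor is known to damage the mouse heart. The 6 genes have unrelated products. Bex1 encodes a small adaptor protein best known from neurons, where it binds the p75 neurotrophin receptor, and Lgi1 encodes a secreted protein that binds the ADAM22 and ADAM23 receptors at synapses. Mtm1 encodes myotubularin, a lipid phosphatase that removes the 3-phosphate from phosphoinositides on endosomes and is lost in human X-linked myotubular myopathy. Smg1 encodes the kinase that phosphorylates Upf1 in nonsense-mediated mRNA decay. Ghitm encodes a protein of the inner mitochondrial membrane of the TMBIM family, which helps to shape the cristae. Neat1 is a long noncoding RNA that stays in the nucleus and builds paraspeckles.

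The promoters of the genes were read because the receptor signals through cyclic AMP, whose response element is a promoter motif. Windows from 250 bases before to 50 bases after the start site came from RefSeq on GRCm38.p6, and 5 of the 6 genes matched. Neat1 was not among them. Letters in capitals are matches, on either strand, to the motifs searched. The short cyclic AMP element TGACG lies in 20.8% of all 32851 mouse windows, the full element TGACGTCA in 1.79%, the E box CACGTG in 7.15%, the MEF2 element (CTA and TAG with any 4 bases between) in 3.69% and the TATA box TATAAA in 13.6%. The ERR element TCAAGGTCA lies in 0.423% and the NRF1 element in 0.971%. TGACG is also the first part of the full element, so every full match is counted for both. Bex1 (chrX:136215464-136215763, minus strand) holds TGACG just before its start site and CACGTG across it, and Ghitm (chr14:37135273-37135572, minus strand) holds TGACG on both sides of it. Mtm1 (chrX:71214756-71215055, plus strand, the second of 3 windows) holds CACGTG. No motif letters were found in the windows of Lgi1 (chr19:38264437-38264736, plus strand) or Smg1 (chr7:118243588-118243887, minus strand).
Bex1: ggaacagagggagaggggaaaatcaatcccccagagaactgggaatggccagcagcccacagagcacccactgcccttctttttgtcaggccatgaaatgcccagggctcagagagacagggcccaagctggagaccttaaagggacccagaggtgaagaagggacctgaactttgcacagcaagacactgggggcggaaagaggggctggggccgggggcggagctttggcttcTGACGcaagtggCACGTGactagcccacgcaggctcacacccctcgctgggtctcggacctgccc
Lgi1: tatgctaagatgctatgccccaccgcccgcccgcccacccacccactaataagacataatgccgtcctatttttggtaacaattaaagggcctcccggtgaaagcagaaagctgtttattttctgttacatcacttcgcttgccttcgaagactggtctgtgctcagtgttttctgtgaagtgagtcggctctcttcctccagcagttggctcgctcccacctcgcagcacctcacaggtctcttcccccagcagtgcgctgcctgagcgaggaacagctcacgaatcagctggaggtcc
Mtm1: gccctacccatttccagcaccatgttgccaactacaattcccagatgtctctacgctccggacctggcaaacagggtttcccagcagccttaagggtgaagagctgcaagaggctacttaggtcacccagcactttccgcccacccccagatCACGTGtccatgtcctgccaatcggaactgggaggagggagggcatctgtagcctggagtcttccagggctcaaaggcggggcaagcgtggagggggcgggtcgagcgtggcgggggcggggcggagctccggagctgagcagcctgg
Smg1: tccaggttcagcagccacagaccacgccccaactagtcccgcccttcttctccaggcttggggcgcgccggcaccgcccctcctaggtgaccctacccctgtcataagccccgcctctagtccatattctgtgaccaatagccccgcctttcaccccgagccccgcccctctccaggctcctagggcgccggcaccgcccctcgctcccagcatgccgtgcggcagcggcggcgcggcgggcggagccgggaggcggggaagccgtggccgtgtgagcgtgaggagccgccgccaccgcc
Ghitm: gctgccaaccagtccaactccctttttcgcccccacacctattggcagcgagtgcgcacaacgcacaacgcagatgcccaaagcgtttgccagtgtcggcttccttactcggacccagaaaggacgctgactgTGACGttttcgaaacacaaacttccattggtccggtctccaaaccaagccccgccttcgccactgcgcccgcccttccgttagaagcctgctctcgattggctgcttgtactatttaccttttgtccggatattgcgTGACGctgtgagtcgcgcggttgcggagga

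The Bex1 matches start 15 bases (TGACG) and 3 bases (CACGTG) before the start site. The Ghitm matches start 117 bases before and 20 bases after it, and the Mtm1 match starts 98 bases before it. Other windows of Mtm1 and Ghitm overlap those shown, apart from 1 Mtm1 window that lies upstream and holds no match. Another Ghitm window also holds a TGACG outside the sequence shown, 19 bases before its own start site. The genes lie on chromosomes X (Bex1 and Mtm1), 19 (Lgi1 and Neat1), 7 (Smg1) and 14 (Ghitm). They span from 1.5 kb (Bex1) to 113.1 kb (Smg1).

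Bex1 was the lowest of all 45037 probe sets in ARG against NTG hearts. Its log2 values in ARG hearts had a lowest value of -3.31, a median of -3.08 and a highest of -2.66. In GLY hearts they were -3.36, -2.25 and -0.38, and in NTG hearts -0.76, 0.06 and 0.33. Every ARG heart was therefore below every NTG heart, whereas GLY replicate 1, at -0.38, lay among the NTG hearts and the other 5 GLY hearts below them. The mean was -3.07 ± 0.24 in ARG, -2.04 ± 1.12 in GLY and -0.08 ± 0.40 in NTG hearts (SD, n = 6 each). As a change, Bex1 was lower by 7.96-fold in ARG hearts (-2.99 ± 0.31, log2 ± SE) and by 3.89-fold in GLY hearts (-1.96 ± 0.31), both against NTG. Geometric mean ratios were 0.119 in ARG, 0.243 in GLY and 0.946 in NTG hearts.

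Lgi1 followed Bex1 closely. On its lead probe set, the one with the lowest mean change over ARG and GLY, ARG hearts lay at -3.34, -2.88 and -2.07 (lowest, median and highest log2 value). GLY hearts lay at -3.02, -2.28 and -0.86, and NTG hearts at -0.23, -0.00 and 0.30. No receptor heart reached the NTG range. The change was -2.82 ± 0.29 in ARG (7.06-fold lower) and -2.11 ± 0.29 in GLY (4.32-fold lower), the second lowest in ARG and the lowest of all probe sets in GLY. The second Lgi1 probe set gave -2.08 ± 0.21 and -1.30 ± 0.21 for the same changes, also without overlap with NTG hearts.

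Mtm1 was lower by similar amounts in both receptor lines. Its lead probe set had log2 values of -2.59, -2.04 and -1.36 in ARG hearts, -2.96, -1.94 and -1.13 in GLY hearts, and -0.63, -0.16 and 0.12 in NTG hearts (lowest, median and highest). All 12 receptor hearts lay below all NTG hearts. The change was -1.76 ± 0.23 in ARG (3.40-fold lower) and -1.81 ± 0.23 in GLY (3.50-fold lower). Smg1, the decay kinase, showed the same order at a smaller size. Its lead probe set lay at -1.62, -1.10 and -0.80 in ARG hearts, at -1.93, -1.01 and -0.73 in GLY hearts, and at -0.40, -0.10 and 0.18 in NTG hearts, again without overlap. The changes were -1.06 ± 0.18 in ARG (2.09-fold lower) and -1.13 ± 0.18 in GLY (2.18-fold lower).

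Ghitm had a lower mean in GLY than in ARG hearts. The lead probe set lay at -1.43, -0.91 and -0.44 in ARG hearts, at -2.26, -1.30 and -0.24 in GLY hearts, and at -0.22, -0.01 and 0.07 in NTG hearts (lowest, median and highest log2 value). The highest GLY heart, replicate 6, was close to the lowest NTG heart, but the groups did not overlap. The change was -0.89 ± 0.22 in ARG (1.85-fold lower) and -1.28 ± 0.22 in GLY (2.43-fold lower). Neat1, the paraspeckle RNA, lay at -2.67, -1.97 and -1.63 in ARG hearts, at -3.98, -2.33 and -1.38 in GLY hearts, and at -1.60, -0.25 and 0.14 in NTG hearts. NTG replicate 4, at -1.60, was far below the other NTG hearts, and GLY replicate 6 was above it. The change was -1.64 ± 0.31 in ARG (3.11-fold lower) and -2.04 ± 0.31 in GLY (4.11-fold lower, the second lowest of all probe sets). Without NTG replicate 4 these changes were -1.88 and -2.28.

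**Figure D1:**
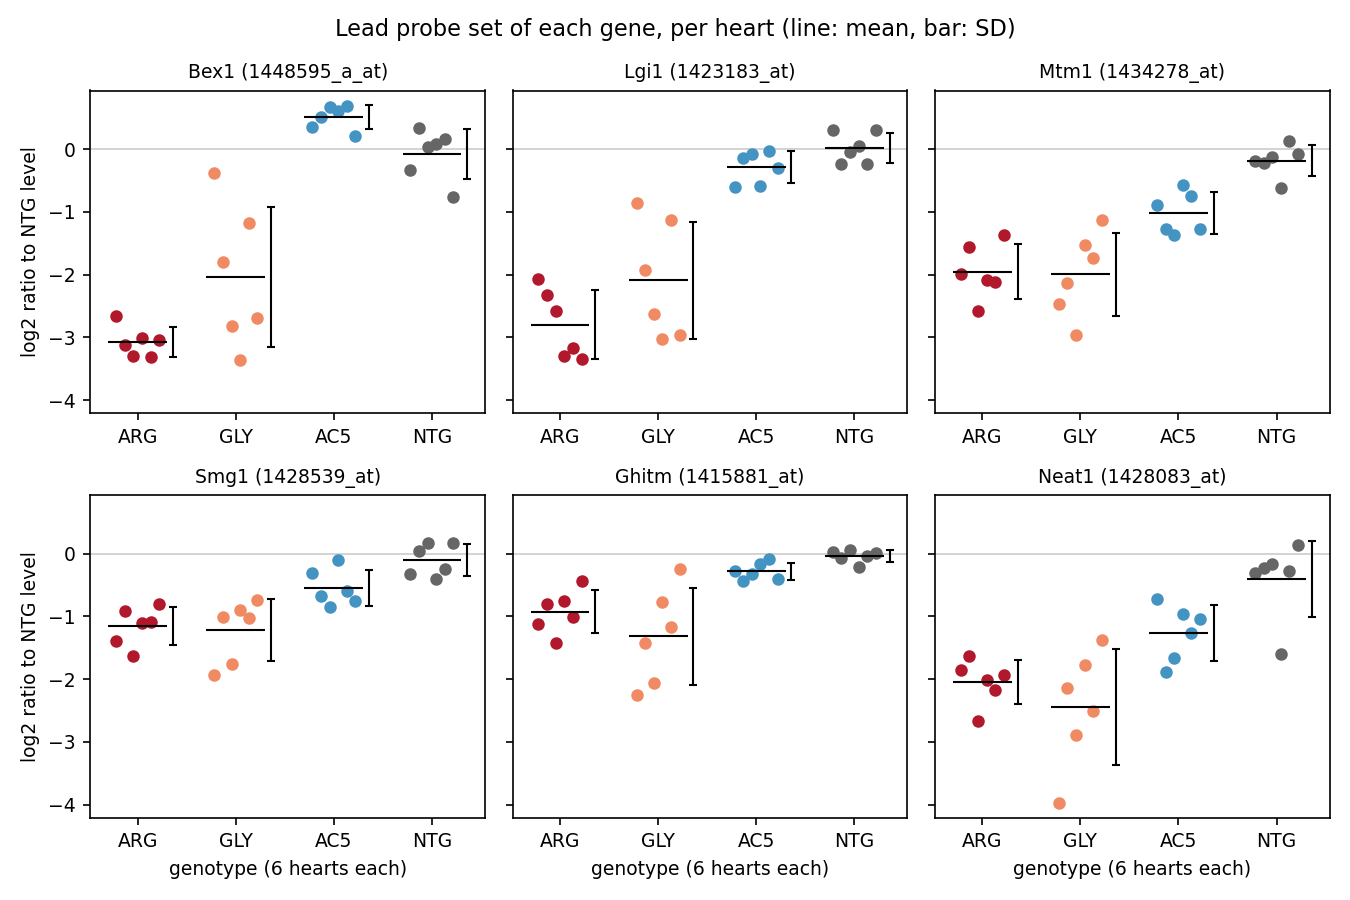
Log2 ratio of the lead probe set of each gene, 1 panel per gene, in every heart (points, n = 6 per genotype) with the group mean and SD. Genotypes run ARG, GLY, AC5 and NTG, and a value of 0 is the non-transgenic level. ARG hearts sit below every NTG heart in all 6 panels. GLY hearts are the most spread in every panel, and Bex1 in AC5 hearts sits between 0.20 and 0.69.

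Over all 14 probe sets of the genes, 10 fell in ARG against NTG, where 5.63% of all probe sets fell. In GLY against NTG 10 fell, against 3.53% of all probe sets. The choice of genes rests on these same contrasts, so nothing is read from those counts. Hearts did not overlap with NTG hearts for 10 of 14 probe sets in ARG (3.79% of all probe sets were lower without overlap) and for 6 of 14 in GLY (1.61%).

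The probe sets of a gene did not all move alike. The 4 that were not called in either receptor line were 1 of 3 for Mtm1, 2 of 4 for Smg1 and 1 of 2 for Neat1. The uncalled Mtm1 probe set changed by -0.19 ± 0.19 in ARG and -0.42 ± 0.19 in GLY. Another Mtm1 probe set gave -0.80 ± 0.12 and -0.72 ± 0.12, less than the lead but with tight hearts (SD 0.12 in ARG and 0.14 in GLY). Smg1 ranged over its 4 probe sets between -1.06 and 0.07 in ARG and between -1.13 and 0.14 in GLY. Its second called probe set gave -0.63 ± 0.15 in ARG and -0.73 ± 0.15 in GLY. The second Ghitm probe set gave -0.34 ± 0.09 in ARG and -0.44 ± 0.09 in GLY. The second Neat1 probe set did not follow the first, with -0.11 ± 0.10 in ARG and 0.09 ± 0.10 in GLY, and over the 24 hearts its r with the lead was -0.22. For the second probe sets of Lgi1 and Ghitm that r was 0.97 and 0.91. Which transcript each probe set reads was not given, so isoforms were not told apart, and the size of each change belongs to its probe set.

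**Figure D2:**
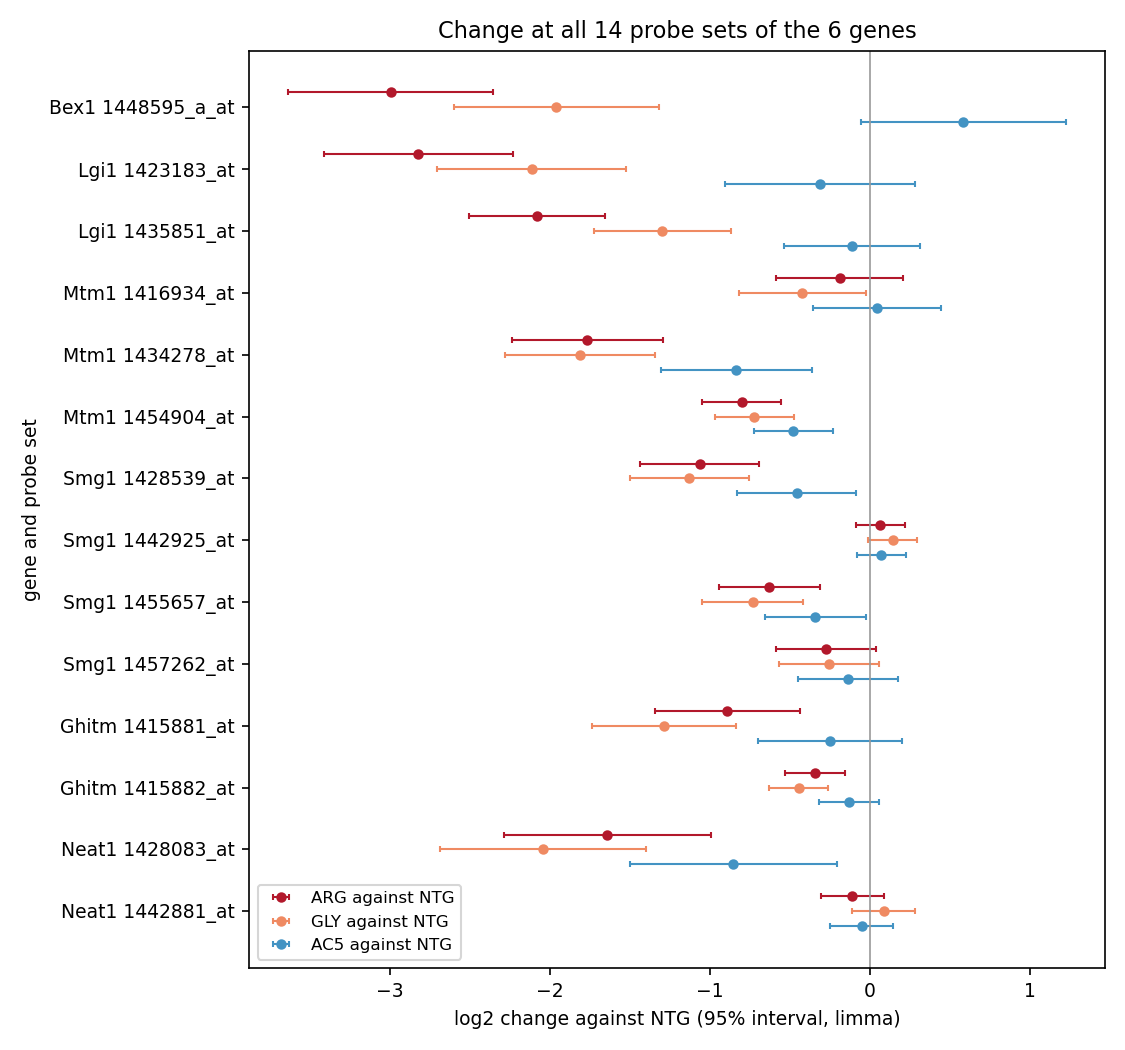
Log2 change of each of the 14 probe sets against NTG in ARG, GLY and AC5 hearts, with the 95% confidence interval of the fit (n = 6 hearts per genotype). Points further left are lower than NTG. Lead probe sets of Mtm1, Smg1 and Neat1 lie at -1.06 to -2.04 in ARG and GLY, while the 4 probe sets of these genes that were not called lie between -0.42 and 0.14.

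Within replicates 1 to 3 and within replicates 4 to 6, every lead probe set was lower in both receptor lines. The labels do not name these sets. The NTG values do not show that they are separate either, since no other split was compared. Bex1 changed by -3.03 and -2.95 in ARG and by -1.68 and -2.24 in GLY, and Lgi1 by -2.33 and -3.31 in ARG and by -1.82 and -2.41 in GLY. The other 4 genes changed more in replicates 1 to 3. In ARG, Ghitm changed by -1.13 in replicates 1 to 3 and by -0.65 in replicates 4 to 6, Neat1 by -1.82 and -1.46, Mtm1 by -1.87 and -1.66, and Smg1 by -1.28 and -0.84. In GLY these pairs were -1.92 and -0.64 for Ghitm, -2.77 and -1.31 for Neat1, -2.34 and -1.28 for Mtm1, and -1.53 and -0.73 for Smg1. Without the 3 arrays of low weight the GLY changes were -0.86 for Ghitm, -1.55 for Neat1, -1.45 for Mtm1 and -0.82 for Smg1, and -2.18 for Bex1 and -2.29 for Lgi1. The ARG changes were then -0.85 to -3.08 over the 6 genes. Quantile normalization, which forces all arrays to 1 distribution, moved several sizes by over 1.5 times. Under it Bex1 changed by -2.07 in ARG and -1.32 in GLY, Lgi1 by -2.04 in ARG, and Neat1 by -0.92 in ARG, where it was no longer called, and by -1.33 in GLY.

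AC5 hearts, which carry the enzyme downstream of the receptor in place of the receptor, were set against NTG hearts next, a comparison that the choice of genes did not use but whose NTG hearts it did. None of the 14 probe sets was called in AC5 against NTG (limma), where 0.142% of all probe sets were called. An unadjusted limma p under 0.05 was found for 5 of 14, and for 3268 of all 45037 probe sets. Bex1 lay at 0.20, 0.56 and 0.69 in AC5 hearts (lowest, median and highest), against -0.76, 0.06 and 0.33 in NTG hearts. Its change was 0.59 ± 0.31 (95% interval -0.05 to 1.23, limma adjusted p = 0.745, exact two-sided permutation p = 0.00433). All 6 AC5 hearts were above the NTG mean, and 1 of them, replicate 6, lay within the range of the NTG hearts. The limma p is adjusted over all 45037 probe sets and the permutation p is not, so their sizes cannot be compared directly. The 95% interval of the fit, which is not adjusted either, includes 0. The tests also differ in the spread they use. The permutation test uses the spread of these 12 hearts alone, while the fit shares 1 spread over 4 genotypes, including the wide GLY hearts. How much each difference adds to the gap was not tested.

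The other 5 leads were all lower in AC5 than in NTG hearts on average, and none was called. Mtm1 lay at -1.37, -1.08 and -0.57 in AC5 hearts, with 5 of 6 below all NTG hearts, and changed by -0.83 ± 0.23 (limma adjusted p = 0.183, exact permutation p = 0.00433). It was called under 5 alternative fits, at -0.83 to -0.97. A further Mtm1 probe set changed by -0.48 ± 0.12 (limma adjusted p = 0.126) and was called without NTG replicate 4, at -0.58. Neat1 lay at -1.89, -1.16 and -0.72 in AC5 hearts, of which 2 were below all NTG hearts, and changed by -0.85 ± 0.31 (limma adjusted p = 0.446, exact permutation p = 0.0281). Smg1 changed by -0.46 ± 0.18 with 4 of 6 AC5 hearts below all NTG hearts (limma adjusted p = 0.515, exact permutation p = 0.0216), and Ghitm by -0.25 ± 0.22, also with 4 of 6 (limma adjusted p = 0.909, exact permutation p = 0.0108). Lgi1 changed by -0.31 ± 0.29 with 3 of 6 (limma adjusted p = 0.914, exact permutation p = 0.0628). These permutation p-values are not adjusted, and the smallest that 6 against 6 hearts allow is 0.00216.

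By mean log2 value, AC5 hearts lay above NTG hearts for Bex1 and below them for the other 5 genes. None of these changes was called. The order of mean log2 values was ARG, GLY, NTG, AC5 from low to high for Bex1 and ARG, GLY, AC5, NTG for Lgi1. For Mtm1, Smg1, Ghitm and Neat1 it was GLY, ARG, AC5, NTG. Hearts of neighbouring genotypes in these orders overlapped everywhere except between GLY and AC5 for Lgi1. Changes of ARG against AC5, which share hearts with the contrasts that chose the genes and are described only, were -3.58 ± 0.31 for Bex1, -2.51 ± 0.29 for Lgi1, -0.93 ± 0.23 for Mtm1, -0.61 ± 0.18 for Smg1, -0.64 ± 0.22 for Ghitm and -0.79 ± 0.31 for Neat1. Those of GLY against AC5 were -2.54 ± 0.31, -1.80 ± 0.29, -0.98 ± 0.23, -0.67 ± 0.18, -1.04 ± 0.22 and -1.19 ± 0.31 in the same gene order.

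The ARG and GLY forms were then set side by side. The hearts of both had been used to choose the genes, so the differences are described by their intervals, without a test. No probe set of the 14 was called by the fit, where 1.51% of all probe sets were. An unadjusted limma p under 0.05 was found for 4 of 14 and for 6102 of all 45037 probe sets, from which nothing is read. Bex1 differed by -1.03 ± 0.31 (95% interval -1.67 to -0.39), with ARG hearts spread over 0.66 log2 and GLY hearts over 2.98. Lgi1 differed by -0.71 ± 0.29 on its lead and by -0.78 ± 0.21 on its second probe set, where 4 of 6 ARG hearts lay below every GLY heart. With 1 heart left out in turn, the Bex1 difference lay between -1.30 and -0.70. That of the second Lgi1 probe set then lay between -0.95 and -0.65.

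For Mtm1 and Smg1 the mean difference between the receptor forms was small beside its error, and for Ghitm and Neat1 its sign was opposite to that of Bex1. It was 0.04 ± 0.23 for Mtm1 (95% interval -0.43 to 0.51), 0.07 ± 0.18 for Smg1 (-0.30 to 0.44), 0.39 ± 0.22 for Ghitm (-0.06 to 0.85) and 0.40 ± 0.31 for Neat1 (-0.24 to 1.05), and each interval includes 0. Within replicates 1 to 3 and within replicates 4 to 6 the difference was 0.80 and -0.01 for Ghitm and 0.95 and -0.15 for Neat1, so that it changed sign between the sets. For Bex1 it was -1.36 and -0.71, and for the lead of Lgi1 -0.51 and -0.90, the same sign in both. Without the 3 arrays of low weight the difference was -0.31 for Mtm1, -0.19 for Smg1, 0.01 for Ghitm and -0.13 for Neat1.

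**Figure D3:**
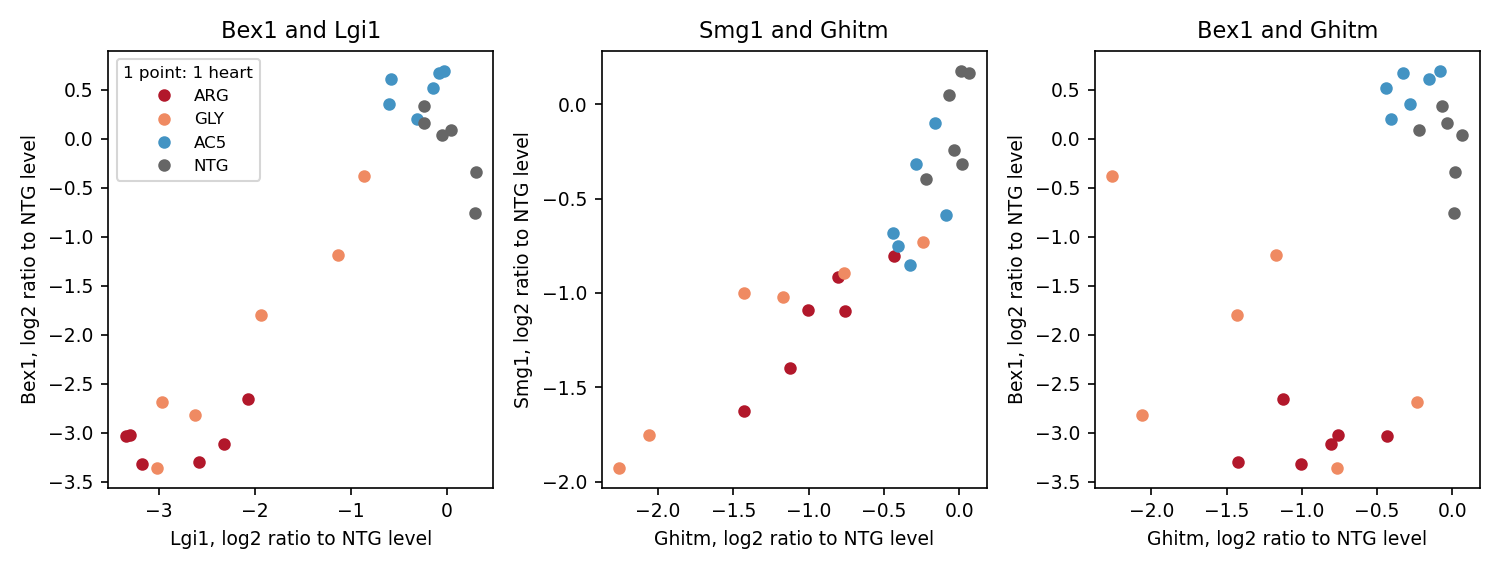
Log2 ratio of Bex1 against Lgi1 (left), Smg1 against Ghitm (middle) and Bex1 against Ghitm (right), lead probe sets, 1 point per heart coloured by genotype (24 hearts). GLY hearts spread along a line in the left and middle panels. In the right panel the GLY heart with the highest Bex1, at -0.38, has the lowest Ghitm, at -2.26.

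Among hearts of 1 genotype the 6 genes showed 2 patterns. In GLY hearts, replicate 1 was the highest for Bex1 (-0.38) and for Lgi1 (-0.86), and replicate 4 the lowest for both (-3.36 and -3.02). For the other 4 genes replicate 6 was the highest GLY heart, and the lowest was replicate 3 for Mtm1 (-2.96) and replicate 1 for Smg1 (-1.93), Ghitm (-2.26) and Neat1 (-3.98). GLY hearts were wide for all of these: the SD of the lead probe set in GLY lay between 0.49 for Smg1 and 1.12 for Bex1, where the median probe set had 0.193. In ARG hearts the SD lay between 0.24 for Bex1 and 0.55 for Lgi1, where the median probe set had 0.175.

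Deviations of the 24 hearts from their genotype means described the same 2 patterns. Among Mtm1, Smg1, Ghitm and Neat1 the 6 pairs had r between 0.73 and 0.87, or 0.56 and 0.80 without 2 hearts. The 2 left out were the hearts farthest from their genotype mean for the gene of the pair that is listed first. Far hearts of the other gene stayed in. For Bex1 with Lgi1 r was 0.72, or 0.50 without 2 hearts, and within genotypes it was 0.42 in ARG, 0.97 in GLY, 0.44 in AC5 and -0.90 in NTG hearts. The value for Bex1 and Lgi1 rests largely on GLY hearts. The 8 pairs between the patterns had r between -0.55 and -0.15, or -0.47 and 0.17 without the 2 farthest hearts, where they were not all below 0. Within genotypes these 8 pairs lay between -0.55 and 0.57 in ARG, -0.75 and -0.27 in GLY, -0.82 and 0.58 in AC5, and -0.39 and 0.21 in NTG hearts. Within GLY hearts alone the pairs among Mtm1, Smg1, Ghitm and Neat1 lay at 0.76 to 0.94. These r values are descriptions: all genes were read from the same arrays, and the points share the RNA, labelling and array of each heart.

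**Figure D4:**
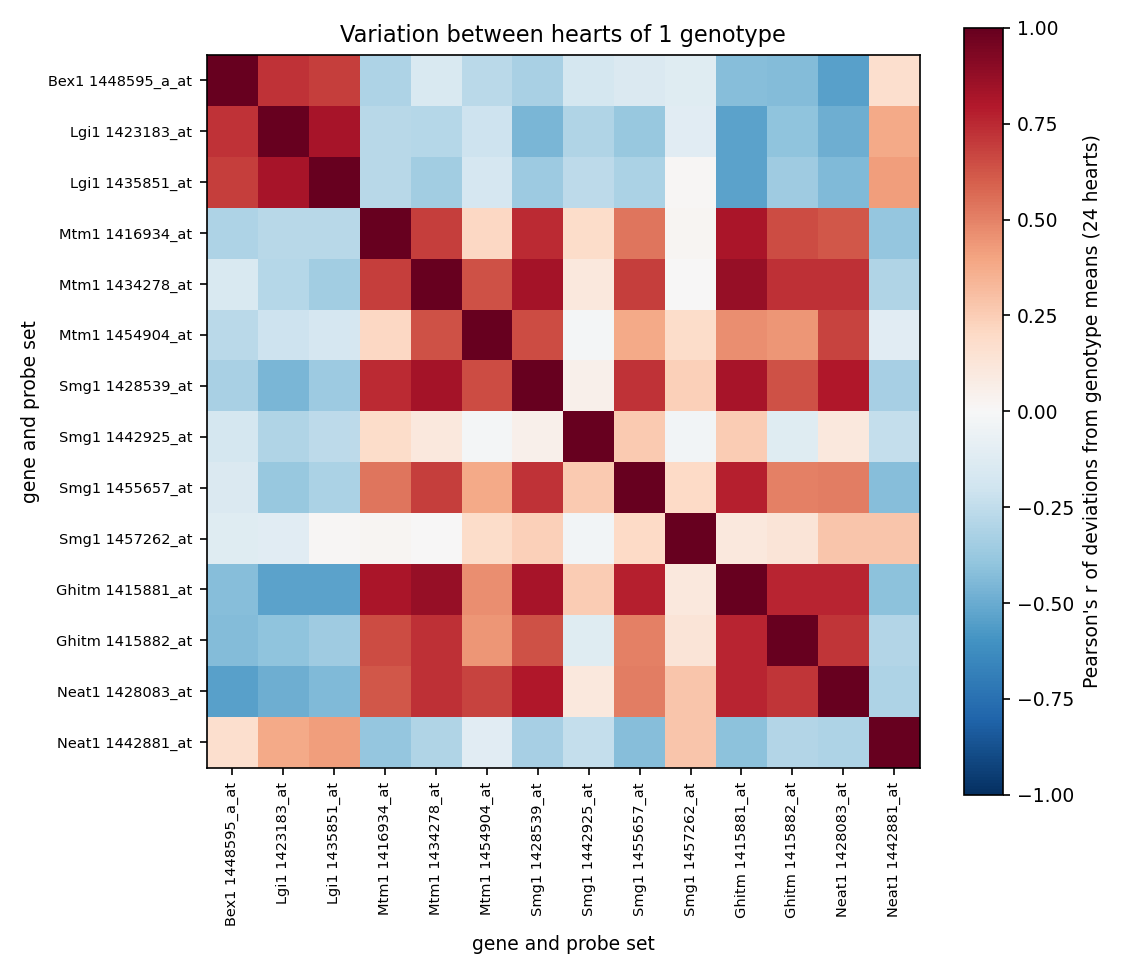
Pearson r of deviations from genotype means over 24 hearts for every pair of the 14 probe sets, with red above 0 and blue below 0. Lead probe sets of Bex1 and Lgi1 form a pair at 0.72 and those of Mtm1, Smg1, Ghitm and Neat1 a block at 0.73 to 0.87, and cells between them lie at -0.55 to -0.15. Probe sets not called in ARG or GLY, apart from that of Mtm1, stand outside the block.

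GLY replicates 1 and 3, the lowest GLY hearts for Mtm1, Smg1, Ghitm and Neat1, were among the 3 arrays of low weight. Without these 3 arrays the 6 pairs among Mtm1, Smg1, Ghitm and Neat1 had r between 0.60 and 0.85, and Bex1 with Lgi1 0.54. The log2 difference of 3′ and 5′ control probe sets, a sign of RNA integrity, lay between -0.04 and 0.08 for Gapdh in ARG hearts, -0.01 and 0.16 in GLY, -0.01 and 0.06 in AC5, and -0.09 and 0.04 in NTG hearts. For Actb it lay between -0.07 and 0.21 in ARG, 0.04 and 0.16 in GLY, -0.12 and 0.15 in AC5, and -0.19 and 0.13 in NTG hearts. Their part in the values of the 6 genes was not tested.

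The genes whose values were most like each member over the 24 hearts also differed between the patterns. By r of log2 values, the nearest to Bex1 were Plaat3 (0.94), Lgi1 (0.94) and Meig1 (0.94), and the nearest to Lgi1 were Sh2d4a (0.94), Tsc22d1 (0.94) and Bex1 (0.93). Suclg2, a subunit of mitochondrial succinyl-CoA ligase, was among the 3 nearest for each of Mtm1 (0.96), Smg1 (0.96), Ghitm (0.95) and Neat1 (0.94). Hnrnpa2b1, a nuclear RNA-binding protein, was among the 3 nearest for Smg1 (0.96) and Neat1 (0.94). Mtm1 also had Ufd1 (0.96) and Ndufab1 (0.95), Smg1 had Higd1a (0.95), Ghitm had Tardbp and Hspa9 (0.95 each), and Neat1 had Pnisr (0.94). Since these r values hold the differences between genotypes, they were also taken over deviations from genotype means. Then the nearest genes were Tex16 (0.83), Fibp (0.81) and Mycl (0.79) for Bex1, Stn1 (0.80), Sh2d4a (0.79) and Gm11342 (0.79) for Lgi1, and Suclg2 (0.89), Hnrnpdl (0.89) and Paip2b (0.88) for Mtm1. For Smg1 they were Hnrnph2 (0.90), Tmlhe (0.90) and Slc30a9 (0.89), for Ghitm Sh3bgr (0.96), Eif5 (0.95) and Pdlim5 (0.95), and for Neat1 Trmt11 (0.90), Brd7 (0.89) and Snap23 (0.87). All are descriptions over hearts that share arrays.

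Relatives and partners of the 6 genes were counted next, with 1 probe set per gene chosen without its values. Over all genes counted this way, 7.1% fell and 4.24% rose in ARG against NTG, 4.12% fell and 1.34% rose in GLY, 0.11% fell and 0.066% rose in AC5, and 0.907% fell and 0.989% rose in ARG against GLY. The median change over all genes was -0.01 in ARG, 0.02 in GLY and -0.01 in AC5. Of 8 measured Bex and Tceal relatives of Bex1 none was called in ARG, GLY or AC5 against NTG, and their changes lay between -0.24 and 0.15 in ARG and between -0.19 and 0.15 in GLY. Of 12 Lgi proteins, ADAM receptors and other partners of Lgi1 none was called either, with changes between -0.22 and 0.09 in ARG and between -0.23 and 0.08 in GLY. In both lists 0 genes were also called in ARG against GLY. With so few genes these counts are near the shares over all genes and are not a result about the families.

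Of 19 myotubularins and enzymes of phosphoinositide 3-phosphate turnover, 1 rose and 1 fell in ARG, with a median of -0.03, and 1 rose in GLY, with a median of -0.02. Fig4, a phosphatase of the PIKfyve complex, rose by 0.29 ± 0.09 in ARG (limma adjusted p = 0.0333) and by 0.43 ± 0.09 in GLY (limma adjusted p = 0.00439). Pik3r4, the regulatory subunit of the class III kinase that makes phosphatidylinositol 3-phosphate, fell by 0.39 ± 0.10 in ARG against NTG and by 0.39 ± 0.10 in ARG against GLY (limma adjusted p = 0.00781 and 0.0354). Of 13 genes of the muscle triad and of centronuclear myopathy, 1 rose and 1 fell in ARG (median -0.11) and 2 fell in GLY (median -0.06). Ttn, the giant sarcomere spring titin, fell by 0.33 ± 0.09 in ARG and 0.41 ± 0.09 in GLY (limma adjusted p = 0.0168 and 0.00879), at 1 of its 6 probe sets in each. Ryr1, the calcium release channel of skeletal muscle, rose by 0.35 ± 0.11 in ARG (limma adjusted p = 0.0375), at 1 of 2 probe sets. Asph, the locus of junctin and junctate, fell by 0.39 ± 0.10 in GLY (limma adjusted p = 0.0252), at 2 of 6 probe sets. Over all genes 7.1% fell and 4.24% rose in ARG, and 4.12% fell and 1.34% rose in GLY. With so few genes called, the counts of these lists are not a result about them.

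Around Smg1, 15 further genes of nonsense-mediated decay were measured, of which 1 rose and 1 fell in ARG (median 0.00) and 3 fell in GLY (median -0.06). Upf2, the bridge between Upf1 and the exon junction complex, fell by 0.75 ± 0.24 in ARG and 0.93 ± 0.24 in GLY (limma adjusted p = 0.0427 and 0.0201), at 1 of 2 probe sets. Rbm8a, a core protein of that complex, fell by 0.51 ± 0.12 in GLY (limma adjusted p = 0.0121), at 1 of 2 probe sets. Ruvbl1, an ATPase that acts with the kinase, fell by 0.25 ± 0.06 in GLY (limma adjusted p = 0.0174). Etf1, the translation release factor, rose by 0.42 ± 0.10 in ARG against NTG and by 0.39 ± 0.10 in ARG against GLY (limma adjusted p = 0.00651 and 0.0493). Those rises were called at 2 of 6 and at 1 of 6 Etf1 probe sets. Of 8 kinases of the same family and their chaperones, Tti1, a subunit of the TTT chaperone, fell by 0.35 ± 0.09 in ARG (limma adjusted p = 0.0154) and none was called in GLY. The medians of that list were -0.22 in ARG and -0.19 in GLY. In ARG the counts of the decay list are near the shares over all genes (7.1% fell, 4.24% rose). In GLY 4.12% of all genes fell. With so few genes called, the counts of the decay and kinase lists are not a result about them.

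Around Ghitm, 18 genes of the TMBIM family and of the inner mitochondrial membrane were measured. In ARG 1 rose and 4 fell (median -0.10), and in GLY 4 fell (median -0.04). Opa1, the fusion GTPase of the cristae, fell by 0.50 ± 0.13 in ARG and 0.56 ± 0.13 in GLY (limma adjusted p = 0.0107 and 0.0108), at 2 of 3 probe sets in each. Immt, the core of the MICOS complex at the crista junction, fell by 0.49 ± 0.11 and 0.46 ± 0.11 (limma adjusted p = 0.0031 and 0.0114) at 3 of 3 probe sets in each line. Oma1, a protease that cleaves Opa1, fell by 0.40 ± 0.07 and 0.25 ± 0.07 (limma adjusted p = 0.00051 and 0.0433). Micos10, a small MICOS subunit, fell by 0.54 ± 0.11 in ARG (limma adjusted p = 0.00138), at 1 of 3 probe sets. Afg3l2, a subunit of a protease in that membrane, fell by 0.48 ± 0.12 in GLY (limma adjusted p = 0.0149), at 2 of 3. Tmbim1, a relative of Ghitm outside mitochondria, rose by 0.57 ± 0.17 in ARG (limma adjusted p = 0.0282).

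Around Neat1, 17 paraspeckle proteins were measured, of which 3 fell in ARG (median -0.10) and 2 fell in GLY (median -0.15). Tardbp, which encodes the RNA-binding protein TDP-43, fell by 1.01 ± 0.19 in ARG and 1.08 ± 0.19 in GLY (limma adjusted p = 0.000728 and 0.00146), at 3 of its 5 probe sets. Hnrnpm, a splicing regulator, fell by 0.45 ± 0.14 in ARG and 0.74 ± 0.14 in GLY (limma adjusted p = 0.0363 and 0.00188). Ewsr1 fell by 0.26 ± 0.08 in ARG (limma adjusted p = 0.0297), at 2 of 3 probe sets. Sfpq, a protein that paraspeckles need, was called in ARG against GLY, where it rose by 0.54 ± 0.13 at 2 of 6 probe sets (limma adjusted p = 0.0347). Of 11 other long noncoding RNAs, most of them nuclear, 1 fell in ARG and 2 fell in GLY. Gas5, a host of small nucleolar RNAs, fell by 0.66 ± 0.14 in ARG and 0.67 ± 0.14 in GLY (limma adjusted p = 0.00242 and 0.00586). Those falls were called at 2 of 4 probe sets in ARG and at 3 of 4 in GLY. Snhg1, another such host, fell by 0.65 ± 0.19 in GLY (limma adjusted p = 0.0395), at 3 of 5 probe sets. In AC5 against NTG no gene of these 9 lists was called. Over all genes only 0.11% fell and 0.066% rose there, so nothing is read from the lack of calls. Changes in AC5 hearts lay between -0.65 and 0.08 for paraspeckle proteins and between -0.61 and 0.16 for decay genes.

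**Figure D5:**
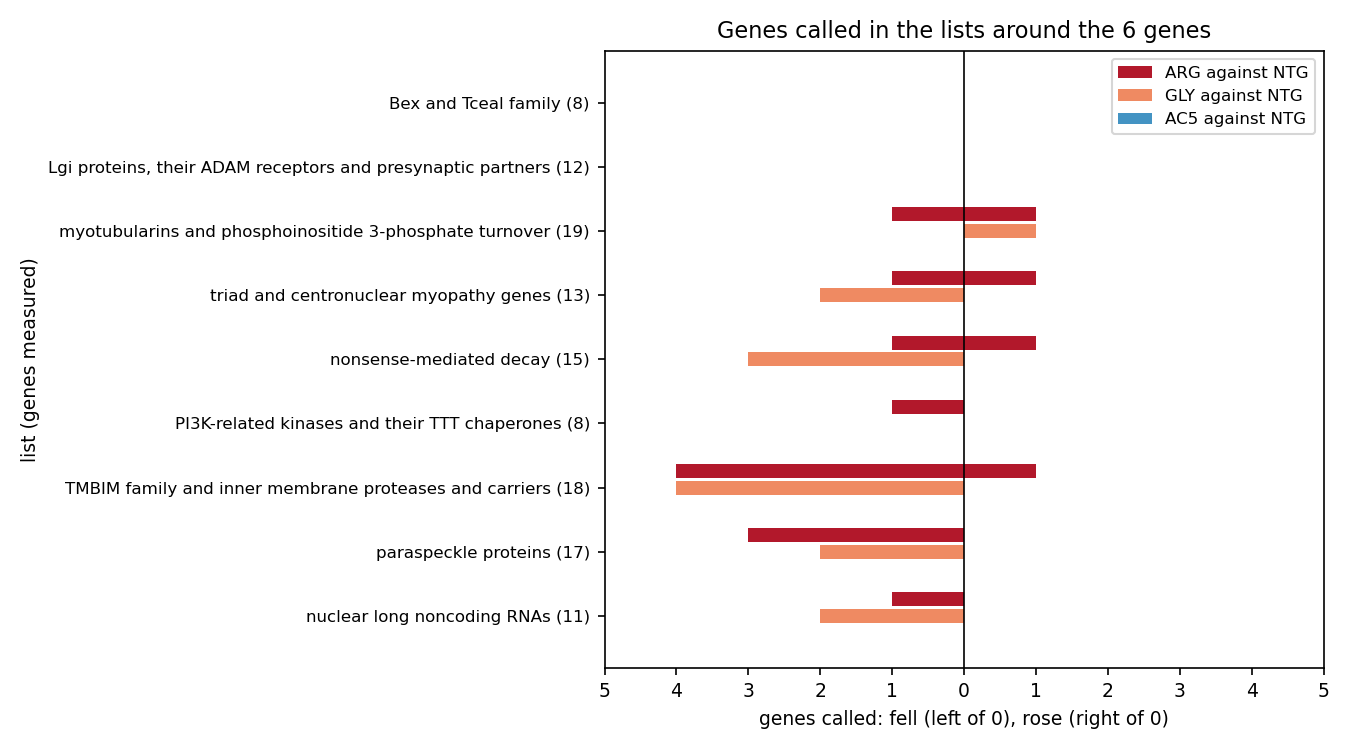
Number of genes called against NTG in the 9 lists around the 6 genes, fell to the left of 0 and rose to the right, for ARG, GLY and AC5 hearts (n = 6 per genotype, 1 probe set per gene, genes measured in brackets). Bex and Lgi relatives have no bar, and the TMBIM and inner membrane list has 4 falls in ARG and in GLY. AC5 has no bar in any list, where over all genes 0.11% fell and 0.066% rose.

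Markers of other cell types also differed between the genotypes. Of 17 markers of nerve and Schwann cells, where Bex1 and Lgi1 are best known, 2 rose and none fell in ARG and 1 rose and none fell in GLY. The median change of that list was -0.02 in ARG and 0.02 in GLY, and over its 40 probe sets 4 rose and 1 fell in ARG. Its mean log2 value lay between -0.01 and 0.24 in ARG hearts, -0.02 and 0.16 in GLY, -0.07 and 0.08 in AC5, and -0.02 and 0.05 in NTG hearts. Uchl1, a ubiquitin hydrolase abundant in neurons, rose by 2.25 ± 0.29 in ARG and 1.02 ± 0.29 in GLY (limma adjusted p = 5.85e-06 and 0.0371), and Tubb3, neuronal tubulin, by 0.30 ± 0.07 in ARG. The list mean includes Uchl1, which had the largest change of the list in both lines. Of 14 cardiomyocyte markers 1 rose and 2 fell in ARG, and none was called in GLY. Nkx2-5, a cardiac transcription factor, rose by 0.47 ± 0.15 and Tcap, telethonin of the sarcomere, fell by 0.81 ± 0.10 in ARG (limma adjusted p = 0.0394 and 4.7e-06). The list's mean log2 value lay between -0.20 and -0.04 in ARG hearts, -0.30 and 0.09 in GLY, -0.15 and 0.02 in AC5, and -0.15 and 0.13 in NTG hearts.

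Among 16 macrophage markers 11 rose in ARG, and 2 rose and 1 fell in GLY. Lgals3, galectin-3, rose most in both, by 2.75 ± 0.26 in ARG and 1.49 ± 0.26 in GLY, and Cd163, a scavenger receptor, fell by 0.52 ± 0.14 in GLY. The mean log2 value of the macrophage list lay between 0.38 and 1.19 in ARG hearts, -0.21 and 0.66 in GLY, -0.18 and 0.18 in AC5, and -0.07 and 0.12 in NTG hearts. Of 12 fibroblast markers 6 rose and 1 fell in ARG and 1 rose in GLY, with mean log2 values of 0.02 to 0.57 in ARG hearts, -0.23 to 0.38 in GLY, -0.28 to -0.15 in AC5, and -0.14 to 0.02 in NTG hearts. Mfap5, of microfibrils, rose by 1.09 ± 0.15 and Gsn, gelsolin, fell by 0.64 ± 0.14 in ARG, the latter at 5 of 6 probe sets. Vim, vimentin, rose by 0.40 ± 0.11 in GLY. Of 14 endothelial markers 5 fell in ARG and 3 fell in GLY, led in both by Fabp4, a fatty acid carrier of capillaries. Fabp4 fell by 1.73 ± 0.29 in ARG and 1.72 ± 0.29 in GLY (limma adjusted p = 0.000188 and 0.000974), at 3 of 4 and 2 of 4 probe sets. Of 11 atrial and conduction markers 1 rose and 1 fell in ARG, and none was called in GLY. Nppa, atrial natriuretic peptide, rose by 1.20 ± 0.30 and Cacna1g, a T-type calcium channel, fell by 0.51 ± 0.14 in ARG (limma adjusted p = 0.00877 and 0.0157). Of 5 measured sex-linked genes none was called in ARG, GLY or AC5 against NTG, but the values of some varied between hearts. Their mean log2 value lay between -0.62 and -0.02 in ARG hearts, -0.80 and -0.04 in GLY, -0.28 and 0.05 in AC5, and -0.14 and 0.11 in NTG hearts. Because the list joins X-linked Xist with Y-linked genes, its mean does not measure sex. The lowest means were those of GLY replicate 3 (-0.80), GLY replicate 1 (-0.79) and ARG replicate 1 (-0.62). These are the 3 arrays of low weight, and GLY replicates 1 and 3 are the lowest GLY hearts for Mtm1, Smg1, Ghitm and Neat1. Eif2s3y, a Y-linked translation factor, lay at 1 probe set between -1.35 and 0.06 in ARG hearts, -2.40 and 0.03 in GLY, -0.97 and 0.07 in AC5, and -0.37 and 0.17 in NTG hearts. At its other probe set all hearts lay between -0.22 and 0.30. Xist, an X-linked RNA, lay between -0.36 and 0.30 over all its probe sets and all hearts. The part of these markers in the values of the 6 genes was not tested.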

How the data were processed

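Total RNA of 24 mouse hearts, 6 for each of 4 genotypes, was measured on Affymetrix arrays, 1 array per heart. RMA is the tool named per the submitters' processing notes, with a version not given in the sources used here. What the authors deposited is a linear ratio centred near 1 in NTG arrays, and the division by the NTG level was inferred from the values. The plan had assumed values that needed only log2, which was taken first here. The table's 45101 probe sets less 64 controls gave 45037 for testing, and 34945 of them carried a single gene symbol, 932 several and 9160 none. Entrez identifiers gave current symbols for 18032 genes. No filter on brightness was possible.

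limma 3.58.1 (R 4.3.3) was run on the 24 arrays together, giving a mean for every genotype and 1 shared spread per probe set. Benjamini-Hochberg adjustment covered all probe sets of a comparison, and calls were made at an adjusted p under 0.05. "Rose" and "fell" are used of called features. The mean SD between replicates was 0.192 in ARG, 0.221 in GLY, 0.155 in AC5 and 0.143 in NTG, and the number of arrays sets the precision. The median log2 value per array ranged from -0.05 to 0.09. AC5 and NTG hearts were also compared at each lead probe set by exact permutation over hearts. Labels call the hearts biological replicates and name no batch. In NTG hearts the median absolute log2 of the mean was 0.0296 over replicates 1 to 3 and 0.0341 over replicates 4 to 6, beside 0.0890 in single arrays. A mean of several hearts varies less than 1 heart, and no other split was compared, so these values do not show separate sets. Values within each set are given as a description. Replicate numbers were not treated as pairs, since the deviations of same-numbered hearts did not all correlate above 0.1 (0.05 to 0.49 between ARG and GLY).

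The 6 genes and the 16 lists (230 members, 210 matched) were chosen with earlier results of these data known. Named were all members at each probe set, with the lead as the one lowest on the mean of the ARG and GLY changes, and in each list the called gene with the largest rise and fall. Further called genes were named where a count of 5 or fewer needed them, and the 3 genes nearest to each member by r. Markers called by that rule between receptor lines or against AC5 are not named. The plan also held tests of the 6 genes in ARG against GLY, whose p-values are not given because the choice of genes used the hearts of both. For lists, 1 probe set per gene was taken by suffix and lowest number. Promoter windows came from RefSeq. Alternatives were other normalizations, fits, weights, sets of hearts and hearts left out in turn. Plots were drawn with matplotlib 3.10.9, and tables made with numpy 2.4.6 and pandas 2.3.3 in Python 3.11.15.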

Additional observations from a re-analysis of the deposited data

Results flagged for a closer look

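Neat1 in NTG replicate 4 stood far below the other non-transgenic hearts on the lead probe set, at -1.60 where the others lay between -0.31 and 0.14. The gap to the nearest heart was 0.744 of the group's range, above Dixon's limit for 6 hearts. It was the only 1 of 56 groups checked (14 probe sets in 4 genotypes) to pass, and chance flags about 1 in 20. Mtm1 and Smg1 also had their lowest NTG value in that heart, at -0.63 and -0.40.

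Bex1 values of AC5 hearts and of receptor hearts lay on opposite sides of the NTG mean, although Bex1 was not called in AC5 against NTG. Against the NTG mean, AC5 hearts lay between 0.28 and 0.77, ARG hearts between -3.23 and -2.58 and GLY hearts between -3.28 and -0.30. The difference between these effects was not tested, since the ARG and GLY values chose the gene and AC5 shares the same NTG hearts.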

How the results depend on the processing

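In AC5 against NTG and ARG against GLY, 898 of 952 recomputed probe set values of the 6 genes kept their direction and their side of the threshold, 35 reversed and 19 were newly called. In ARG and GLY against NTG, 947 of 952 moved by less than the SD between hearts, 5 moved further, all after quantile normalization in ARG, 14 lost their call and 1 gained one. Of the 14 probe sets, 7 to 11 were called in ARG and in GLY against NTG under each alternative except replicates 4 to 6 alone in GLY, which gave 3, and 1 probe set per gene, which gave 5 of 6 genes in each. With hearts left out in turn the counts were 10 to 10 in ARG, 10 to 10 in GLY, 0 to 1 in AC5 and 0 to 2 in ARG against GLY. In AC5 against NTG, where none was called, 1 was called after quantile normalization, 1 in a fit of the 2 groups alone, 2 with array weights, 2 with a weight per genotype and 1 without the 3 arrays of low weight. The Mtm1 lead was among them, at -0.97, -0.83, -0.85, -0.83 and -0.83. In ARG against GLY, 1 was called with array weights, 1 with the set of replicates as a term and 1 without the 3 arrays: the second Lgi1 probe set, at -0.82, -0.78 and -0.87. The causes were not tested. Nothing is read from any call in ARG against GLY, since the hearts of both chose the genes.

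With the replicate number as a block, 10 were called in ARG, 10 in GLY, 0 in AC5 and 1 in ARG against GLY. Over all probe sets that block called 4551, 2574, 71 and 735, and the samples share only a number.

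All reversals were of values that were not called. In ARG against GLY with replicates 4 to 6 alone, the values were -0.25 and -0.38 at the uncalled and lead probe sets of Mtm1, -0.12 at the lead and 0.11 at another probe set of Smg1, -0.0096 at the Ghitm lead and -0.15 at the Neat1 lead. Without the 3 arrays they were -0.11 and -0.31 for Mtm1, -0.19 and -0.12 for Smg1 and -0.13 for Neat1. With array weights they were -0.0009 and -0.14 for Mtm1 and -0.061 and 0.0024 for Smg1. After quantile normalization Smg1 gave -0.026 and -0.013, after median centring 0.015, and with replicates 1 to 3 alone 0.0065. In AC5 against NTG with replicates 1 to 3 alone the second Neat1 probe set gave 0.0049. With 1 heart left out, ranges that cross 0 in ARG against GLY were -0.15 to 0.22 at the Mtm1 lead and -0.075 to 0.16, -0.015 to 0.24 and -0.080 to 0.046 at 3 Smg1 probe sets. In AC5 against NTG they were -0.0073 to 0.093 for Mtm1 and -0.088 to 0.0043 for Neat1, at uncalled probe sets.

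Over all probe sets the calls ranged, with 1 heart left out and under other settings, from 3490 to 4821 and 1302 to 5931 in ARG (4355 as reported), 1337 to 3961 and 72 to 2817 in GLY (2286), 22 to 90 and 0 to 525 in AC5 (64), and 382 to 1781 and 58 to 880 in ARG against GLY (678). Because 1 spread is shared over genotypes, the error is on average understated between the receptor lines and overstated for AC5. Ratios without signal levels hide which probe sets were dim.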
